A study of Mus musculus with 96 samples.

Results

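The genes described here are 41 genes for proteins of the large ribosomal subunit, taken by symbol from the 24321 gene symbols of the expression table. They are cytoplasmic Rpl and Rplp genes chosen by name, without Rpl5, Rpl11, Rpl26 and Rpl35a, and each symbol was represented by its transcript row with the highest mean. All 41 were found. The study sequenced 96 single cells of murine marrow from C57BL/6 mice of genotype Rpl11 +/lox, which are heterozygous at a gene of the same subunit, and labelled them erythroid precursors. Its design names a span from the burst-forming unit-erythroid, which is an early committed progenitor, up to the nucleated basophilic erythroblast. Cells were captured and their cDNA amplified on a Fluidigm C1 instrument. No Cre driver, wild-type cells or individual animals were named in the labels, so all cells count as 1 sample, nothing was tested, and every comparison below describes cells within that sample.

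The large subunit joins amino acids in its catalytic centre and passes the growing chain out through a tunnel. Its proteins coat a ribosomal RNA core, and some form mobile stalks that recruit translation factors or move transfer RNA. Erythroblasts make very large amounts of globin, and on maturing to red cells they lose their ribosomes along with most messenger RNA. Messenger RNAs of ribosomal proteins commonly begin with an unbroken run of C and U, the terminal oligopyrimidine tract, through which their translation is tied to growth signals.

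Cells were placed by the alpha-globin gene Hba-a1, which is not among the 41. Of 96 cells, 28 had under 1000 symbols at 1 RPKM or more (reads scaled to transcript length in kilobases and to 1000000 mapped reads), and 12 more met a marker list of another blood lineage. The 56 kept cells comprised 9 globin-low cells (Hba-a1 under 100000 RPKM), 11 globin-mid cells (100000 to under 300000) and 36 globin-rich cells (300000 or more). These are ranges and not cell types, and 3 kept cells lay within 10% of the upper limit. In units of 1000 reads, estimated depth ran from 1519 to 11588 per kept cell. Marker lists were counted by their genes at 10 RPKM or more per cell. The erythroblast list, which includes Hba-a1 itself, had medians of 8 in globin-low, 11 in globin-mid and 10.5 in globin-rich cells. The late progenitor list had medians of 7, 8 and 7 in the same order, and the early progenitor list 3, 2 and 1. Kit, a defining gene of early progenitors and part of that last list, reached 1 RPKM in 1 of 56 kept cells. In the globin-low range, 3 cells were poor in erythroid markers and had 2 to 4 monocyte or macrophage markers and 1 to 4 neutrophil markers at 10 RPKM, against 0 of either list in the other 6. Over the monocyte or macrophage list their mean log2(RPKM + 1) was 1.63 to 4.33, against at most 0.03 in those 6. The 3 marker-poor cells had a median of 5 early progenitor markers, against 2.5 in the other 6. Their median of erythroblast markers was 2, against 8.5 in the other 6.

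The sequences around the transcription start are shown for the 4 genes most often and the 4 least often found in globin-rich cells, since a pyrimidine tract there is the feature best known to be shared by these messages. Each window holds 15 bases on either side of the RefSeq start (build GRCm38.p6, written 5′ to 3′ on the gene's strand), and capitals mark the longest run of C or T that touches the 5 bases on either side of the start.
Rpl41, chr10:128549154-128549183, minus strand: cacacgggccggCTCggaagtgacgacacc
Rpl35, chr2:39005117-39005146, minus strand: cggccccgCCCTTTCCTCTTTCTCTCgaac
Rpl37a, chr1:72711245-72711274, plus strand: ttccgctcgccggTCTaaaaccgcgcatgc
Rplp2, chr7:141447636-141447665, plus strand: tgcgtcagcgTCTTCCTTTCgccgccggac
Rpl36a, chrX:134585639-134585668, plus strand: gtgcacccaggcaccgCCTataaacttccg
Rpl10, chrX:74270801-74270830, plus strand: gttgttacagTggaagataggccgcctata
Rpl12, chr2:32961697-32961726, plus strand: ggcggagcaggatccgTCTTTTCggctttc
Rpl22, chr4:152325711-152325740, plus strand: ttcgccctgggaaaagCaatagctggccga
Rpl22 has 2 starts in the RefSeq table, and the first is shown.

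Of the 41 genes, 30 had a start in that table. A run of at least 7 C or T letters on the sense strand touched the start of 16 of the 30 (53.3%), against 15.7% of all 27025 genes with a start. It was present in 3 of 9 genes that persisted in globin-rich cells by the rule given below and in 13 of the other 21. Rpl35 had the run of 18 letters and Rplp2 one of 10, while Rpl41, Rpl37a, Rpl36a, Rpl10 and Rpl22 had runs of at most 4 at their annotated starts. A match describes the letters of this window only, and the start used in these cells was not measured.

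In globin-low cells the whole set was present. All 41 genes were listed, meaning at 1 RPKM or more, in 9 of 9 cells, and the gene medians ran from 70.95 RPKM for Rpl22 to 2794 RPKM for Rpl41. In globin-mid cells 10 of 11 cells listed all 41, and the last listed 40, with Rpl22 at 0.476 RPKM. In globin-rich cells the number listed ran from 8 to 41 with a median of 30.5, 4 of 36 cells listed all 41, and 11 of 36 listed under 21. The mean log2(RPKM + 1) over the 41 genes was 8.88 to 9.94 per globin-low cell (median 9.60), 8.23 to 9.52 per globin-mid cell (median 8.73) and 0.83 to 8.42 per globin-rich cell (median 4.65). The first and last of these do not overlap, while the globin-mid range overlaps both.

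**Figure D1:**
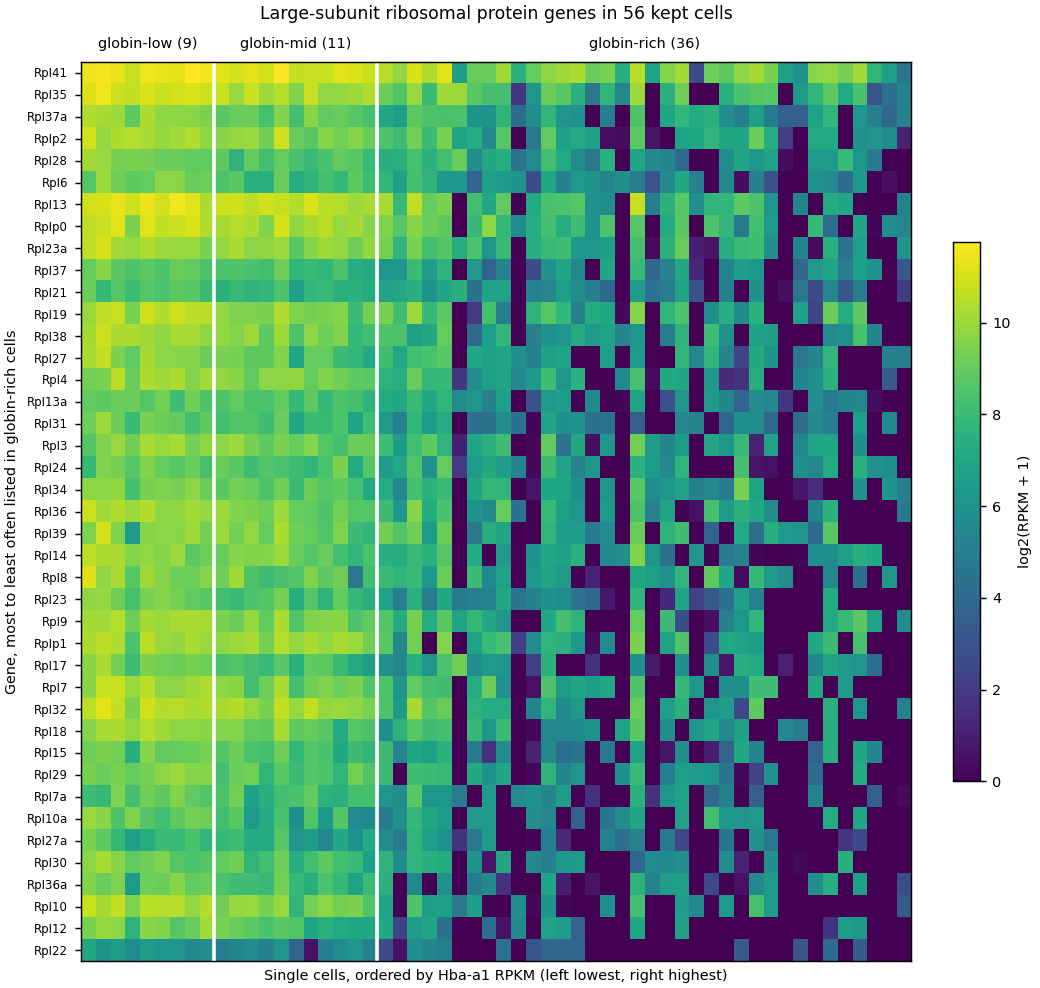
Expression as log2(RPKM + 1) of each of the 41 genes (rows) in each of the 56 kept cells (columns, ordered by Hba-a1), with white lines between the 9 globin-low, 11 globin-mid and 36 globin-rich cells. The rows are filled in globin-low cells, and dark squares, at or near 0, appear in every row but the first, Rpl41, almost all of them in globin-rich columns.

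All 41 genes were lower by at least 1 on the log2(RPKM + 1) scale in globin-rich than in globin-low cells, with a median difference of -5.28 and a range of -7.45 to -2.57. Such a difference was common: 71.7% of the 4372 genes listed in at least 10 kept cells were lower by at least 1, with a median of -2.13. Among the 892 genes listed in every globin-low cell, 807 were lower by at least 1 and the median was -3.97. Against globin-mid cells the 41 genes differed by a median of -4.39, and again all 41 were lower by at least 1, beside 64.0% of all genes tested and their median of -1.49. Between globin-mid and globin-low cells the median was -0.89, from -1.85 for Rpl10a to -0.10 for Rplp1, and 11 of 41 were lower by at least 1 beside 33.3% of all genes. Most of the distance between the ends therefore lay between the globin-mid and globin-rich ranges. In 18 of the 41, every globin-rich cell was below every globin-low cell, which held for 2.72% of all genes tested. Only a gene above 0 in every globin-low cell can separate so. All 41 were listed in each of those cells, but only 892 of the 4372 were, so 2.72% is a low yardstick. The share among the 892 was not computed. No gene of the 41 separated globin-rich from globin-mid cells in this way (0 of 41, beside 0.114% of all genes).

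Leaving out the 3 marker-poor cells gave a median difference of -5.21. A single marker-poor cell gave the lowest globin-low values quoted below for Rpl41, Rplp0, Rplp1, Rpl12, Rpl32 and Rpl36a, among others. The sample descriptions carry 3 run codes, but the titles and the table's column names give all 96 cells the code SCP-1706080, so whether the description codes mark separate runs is not established. Within code SCP-1706013 (3 globin-low and 9 globin-rich cells) the median was -5.64, within SCP-170608 (4 and 8) -4.69, and within SCP-1706080 (2 and 19) -5.26. Counts of symbols moved with the same ranges: medians were 3856 symbols per globin-low cell, 3004 per globin-mid cell and 1550 per globin-rich cell. Estimated depth did not follow them downward, with medians of 5013, 6834 and 7516 in units of 1000 reads. In the 6 globin-rich cells with 2000 symbols or more, 40 of 41 genes were still lower by at least 1 than in globin-low cells (beside 57.8% of all genes), but the median difference was -2.08. The 892 genes listed in every globin-low cell had a median of -2.11 in those cells, so the set's larger median difference over all globin-rich cells was not seen there. Fewer messages of these genes per cell and a poorer recovery of all messages from a cell cannot be told apart in these values.

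RPKM is a share of each cell's reads, and globin took a median of 6.22% of the summed RPKM in globin-low cells, 63.8% in globin-mid cells and 88.2% in globin-rich cells. The 41 genes made up 5.56%, 1.59% and 0.197% in the same order. With globin genes taken out of the sum, they made up 6.32% (4.74% to 7.77%), 4.54% (3.62% to 7.88%) and 1.33% (0.150% to 7.19%). The globin-rich median was thus lower on that scale too, and single globin-rich cells reached the level of globin-low cells.

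Drop-out of a gene from a globin-rich cell was close to all or none. Of the 1476 values of 41 genes in 36 cells, 28.8% were 0, 3.59% were above 0 and under 1 RPKM, 4.13% lay from 1 to under 10 RPKM, 30.8% from 10 to under 100 RPKM and 32.7% at 100 RPKM or more. At the median globin-rich depth, 1 RPKM stands for 2.88 to 15.4 reads, depending on transcript length. This holds for the 39 genes with a length in a newer annotation, is approximate because several of these lengths appear not to be those behind the RPKM values, and leaves 2 genes without a figure. In the cells that listed a gene, its mean log2 value was still below that of globin-low cells, by a median of -3.24 over the 41 genes (-3.90 for Rpl10 to -2.16 for Rpl22). Both the number of cells that listed a gene and the RPKM level in those that did were thus lower. The level where listed was not computed with globin genes taken out.

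A gene was said to persist when listed in at least 75% of globin-rich cells and to drop out when listed in under 50%. By this rule 11 of 41 persisted, 27 were in between and 3 dropped out. Of the 892 genes listed in every globin-low cell, 32.1% persisted and 38.0% dropped out, and of all 4372 genes tested these shares were 11.3% and 75.9%. The median gene of the 41 was listed in 66.7% of globin-rich cells. The counts move with the limits: with globin-rich cells taken from 400000 RPKM 3 persisted and 7 dropped out, and over the 6 globin-rich cells with 2000 symbols or more 40 persisted and 0 dropped out. At the limits stated above, the persisting share was near that of genes listed in every globin-low cell, and the share dropping out was below it. Intervals on single shares are exact Clopper-Pearson intervals at 95%, cover counting error only, and are wide with 36 cells.

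**Figure D2:**
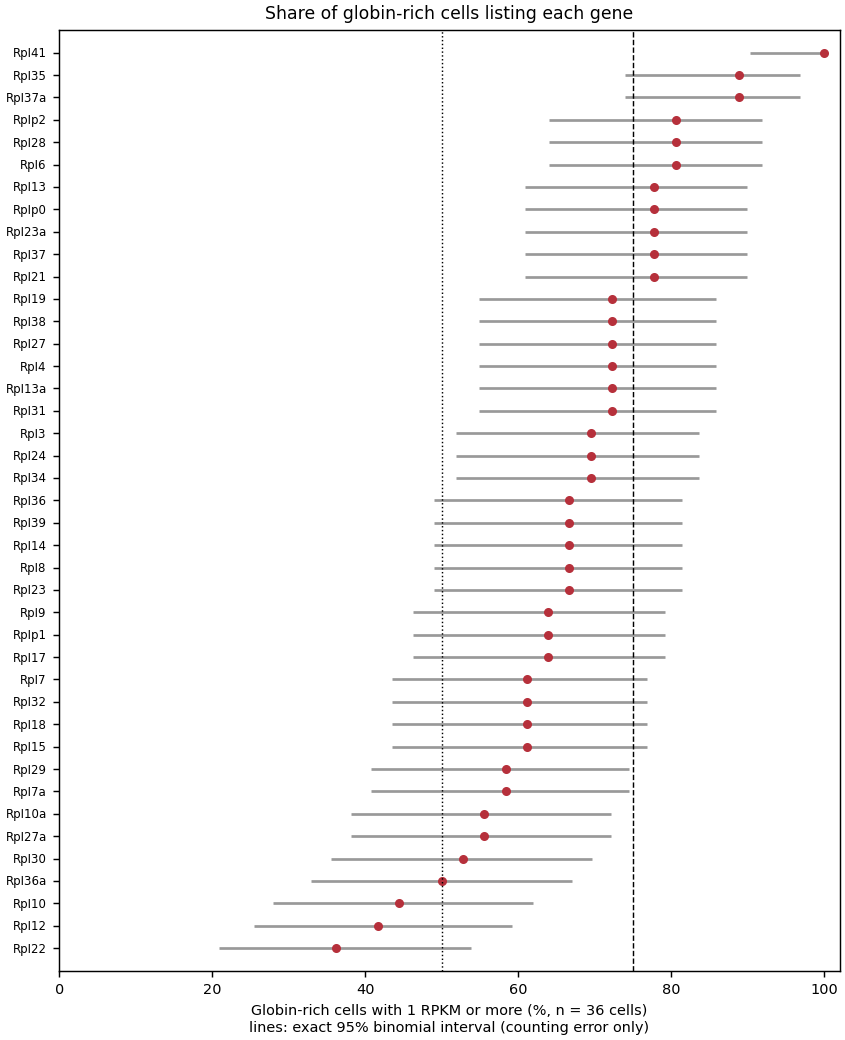
Share of the 36 globin-rich cells in which each of the 41 genes was listed at 1 RPKM or more, with exact 95% binomial intervals as lines and the 50% and 75% limits as dotted and dashed verticals. Rpl41 stands at the top with 36 of 36 cells, Rpl22 at the bottom with 13, and the intervals of neighbouring genes overlap throughout.

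Rpl41 encodes the smallest ribosomal protein, which sits at the interface of the subunits. It was the one gene listed in every kept globin-rich cell (36 of 36, interval 90.3% to 100%). That full share depended on the cell filter. With a minimum of 500 symbols per cell, 93.2% of 44 globin-rich cells listed Rpl41. In the kept cells Rpl41 ran from 1723 to 3477 RPKM in globin-low cells (median 2794). Its range was 1666 to 3297 in globin-mid cells (median 2003) and 5.70 to 2401 in globin-rich cells (median 669). Its difference between the ends, -2.57, was the smallest of the 41, and its globin-rich values overlapped those of both other ranges. The overlap with globin-low cells rested on a single marker-poor cell at 1723 RPKM. In the 6 globin-low cells that were not marker-poor the lowest value was 2524 RPKM, above the highest globin-rich value. The 2 other bridge genes were lower in share. Rpl24 was listed in 25 of 36 cells, and Rpl30 in 19 of 36 (52.8%). Rpl30 ran from 341 to 1252 RPKM in globin-low cells (median 584), from 100.5 to 600 in globin-mid cells (median 297) and from 0 to 214 in globin-rich cells (median 7.40), a difference of -6.05 with no overlap between the ends.

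Of the 4 genes for proteins of the catalytic core and the transfer RNA side, none persisted and Rpl10 dropped out. Over all 41 genes 11 persisted and 3 dropped out, and groups this small do not set positions apart. Rpl10 joins the subunit late in its assembly and reaches toward the bound transfer RNA. It was among the more abundant genes at the start, at rank 7 of 41, with 724.5 to 1733 RPKM in globin-low cells (median 1399) and 216 to 996 in globin-mid cells (median 643). In globin-rich cells it ran from 0 to 368 RPKM with a median of 0.0759, was listed in 16 of 36 cells (44.4%, 27.9% to 61.9%) and had the largest difference of the 41, -7.45. Every globin-rich cell was below every globin-low cell. Rpl3, Rpl4 and Rpl8, which lie near the catalytic centre or line the tunnel's start, were listed in 25, 26 and 24 of 36 cells.

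The P stalk, which recruits the GTPases of translation, was split. Rplp0, the stalk's anchor, ran from 705 to 2435 RPKM in globin-low cells (median 1806), from 737 to 2109 in globin-mid cells (median 1185) and from 0 to 859 in globin-rich cells (median 158), and it was listed in 28 of 36. Rplp2, carried by Rplp0 as a partner of Rplp1, ran from 862 to 2069 (median 1205), 427 to 1904 (median 778.5) and 0 to 681 RPKM (median 117) in the same order and was listed in 29 of 36. Both persisted. Rplp1 ran from 343 to 1496 (median 1264), 592 to 1422 (median 998) and 0 to 756 RPKM (median 63.8) and was listed in 23 of 36, with a difference of -5.50 against -4.58 for Rplp2 and -4.80 for Rplp0. Between globin-mid and globin-low cells Rplp1 differed by -0.10, so its difference lay almost wholly beyond the globin-mid range.

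Rpl12, at the base of that stalk, dropped out. It ran from 196 to 1117 RPKM in globin-low cells (median 747), from 125 to 676 in globin-mid cells (median 331) and from 0 to 141 in globin-rich cells, where its median was 0 and 15 of 36 cells listed it (41.7%, 25.5% to 59.2%). Its difference of -6.99 was next to that of Rpl10, and its values at the ends did not overlap. Rpl10a, the protein of the L1 stalk that guides spent transfer RNA out, was listed in 20 of 36 cells.

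Of the 6 genes at the rim of the exit tunnel, 2 persisted and none dropped out, beside 11 and 3 of all 41. Rpl35, beside the tunnel's mouth, ran from 1657 to 2916 RPKM in globin-low cells (median 2034), from 743 to 1748 in globin-mid cells (median 1051) and from 0 to 1102 in globin-rich cells (median 237), and 32 of 36 listed it. Rpl23a, a docking site for factors at that mouth, ran from 673 to 2090 (median 1069), 431 to 1245 (median 925) and 0 to 681.5 RPKM (median 128), and 28 of 36 listed it. Rpl19 and Rpl31 were listed in 26 of 36 cells, Rpl39 in 24 and Rpl17 in 23. Rpl35 is abundant throughout, and its globin-rich values did not reach the lowest globin-low value.

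Of the 23 other shell proteins, 6 persisted and 1 dropped out, beside 11 and 3 of all 41. Rpl37a, a zinc-binding protein, had 449 to 1300 RPKM in globin-low cells (median 891), 314 to 824 in globin-mid cells (median 476) and 0 to 449 in globin-rich cells (median 70.6), with 32 of 36 listing it and a difference of -4.13. Rpl28 had 479 to 1164 (median 646.5), 201 to 502.5 (median 335) and 0 to 516 RPKM (median 72.2), with 29 of 36 and -4.06. Rpl6 had 410.5 to 1009 (median 574), 168 to 551 (median 272) and 0 to 311 RPKM (median 46.1), with 29 of 36 and -4.62. By their globin-low medians these 3 ranked only 18, 26 and 32 of 41. Rpl13, Rpl37 and Rpl21 were each listed in 28 of 36 cells, just inside the 75% limit, and 6 genes at 26 of 36 (72.2%) lay just outside it: Rpl19, Rpl38, Rpl27, Rpl4, Rpl13a and Rpl31.

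Rpl22, whose paralog Rpl22l1 can take its place, was the lowest gene throughout. It ran from 49.2 to 132 RPKM in globin-low cells (median 70.95), from 0.476 to 71.7 in globin-mid cells (median 34.3) and from 0 to 59.7 in globin-rich cells, with a median of 0 and 13 of 36 cells listing it (36.1%, 20.8% to 53.8%). Rpl36a, at 18 of 36 (50.0%), lay just on the other side of the limit. It ran from 84.7 to 811 RPKM in globin-low cells (median 553), from 110 to 629 in globin-mid cells (median 258) and from 0 to 196 in globin-rich cells (median 1.59), a difference of -6.07. Rpl27a had 105 to 666 (median 252), 43.8 to 417 (median 145) and 0 to 204 RPKM (median 2.35) and was listed in 20 of 36. Rpl32, in contrast, was abundant at 706 to 2515 RPKM in globin-low cells (median 1466) and 648 to 1661 in globin-mid cells (median 976), but had a difference of -6.16, with 0 to 1150 RPKM (median 58.7) and 22 of 36 globin-rich cells. Rpl36a and Rpl10 lie on chromosome X, as does Rpl39, which 24 cells listed. The remaining shell genes lay between: Rpl34 was listed in 25 cells, Rpl36, Rpl14 and Rpl23 in 24, Rpl9 in 23, Rpl7, Rpl18 and Rpl15 in 22, and Rpl29 and Rpl7a in 21.

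**Figure D3:**
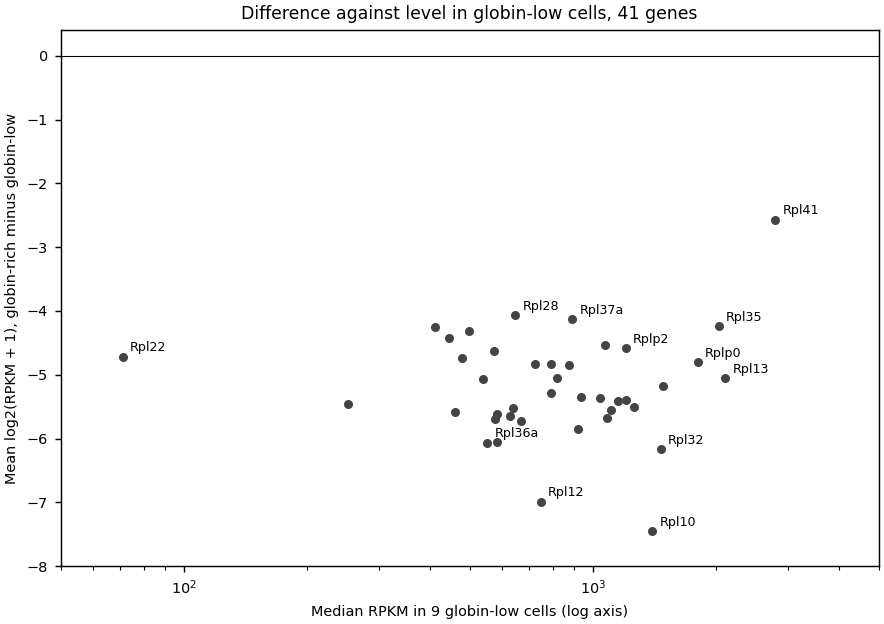
Difference in mean log2(RPKM + 1) between globin-rich and globin-low cells (vertical) against the median RPKM in globin-low cells (horizontal, log axis), 1 point for each of the 41 genes. All points lie below 0, Rpl41 is uppermost at -2.57, and Rpl12 and Rpl10 are lowest at -6.99 and -7.45, among genes of middling to high starting level.

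Starting level ordered the genes only loosely. Across the 41 genes, Spearman's rho between the share of globin-rich cells and the globin-low median was 0.301, and that between the difference and the globin-low median was -0.012. For transcript length, taken for 39 genes from that newer annotation and subject to the same limit, rho with the share was -0.074. These are descriptions across genes that share the same cells and libraries. Rpl10 and Rpl21 show the looseness: Rpl21, with a globin-low median of 412 RPKM at rank 39, was listed in 28 globin-rich cells, and Rpl10, with 1399 RPKM, in 16.

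Globin-rich cells differed widely in how many of the genes they listed. Across the 36 cells, rho of the number listed was -0.598 with Hba-a1, 0.822 with the number of symbols, which includes the 41 genes, and -0.038 with estimated depth. The 11 cells with under 21 genes had 1044 to 1662 symbols (median 1168) and a median depth of 7861 in units of 1000 reads, and the other 25 had 1157 to 2839 symbols (median 1718) and a median depth of 7508. Their part in the result was not tested. In the 11 cells Rpl41 was listed in 11 with a median of 101 RPKM, Rpl35 and Rpl37a in 8, and Rpl21, Rpl24, Rpl37, Rpl6 and Rplp2 in 6. Rplp0, listed in 25 of the 25 other cells, was listed in 3 of these 11. Rpl10, Rpl12 and Rpl22 were missing from many cells of the other kind too, being listed in 12, 13 and 12 of the 25. Rpl10 and Rpl12 were listed together in 8 cells, and 9 of the 36 cells listed none of Rpl10, Rpl12 and Rpl22.

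**Figure D4:**
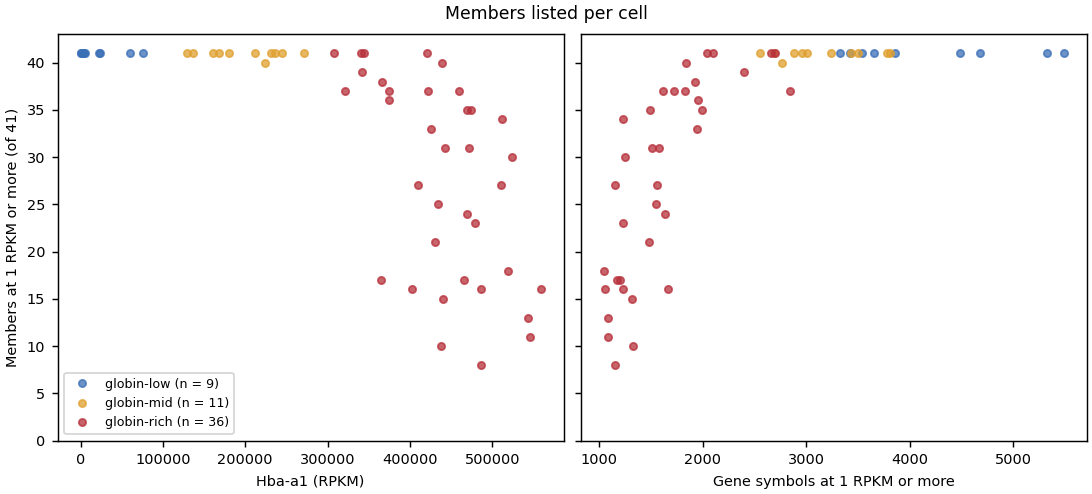
Number of the 41 genes listed at 1 RPKM or more in each kept cell, against Hba-a1 (left) and against the number of gene symbols listed (right), with 1 point for each of the 9 globin-low, 11 globin-mid and 36 globin-rich cells. Globin-low and globin-mid cells sit at 40 or 41, and globin-rich cells spread from 8 to 41.

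Within the run codes of the descriptions, which the titles do not bear out, the pattern was similar for some genes and not for others. Rpl10 was listed in 3 of 9, 4 of 8 and 9 of 19 globin-rich cells of SCP-1706013, SCP-170608 and SCP-1706080. The median number of the 41 genes listed per globin-rich cell was 24, 34 and 33 in the same order. The share of Rpl12 differed more, with 11.1% of globin-rich cells in SCP-1706013, 50.0% in SCP-170608 and 52.6% in SCP-1706080. Rpl41 was listed in every globin-rich cell of each code.

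Within the summed RPKM of the 41 genes, a sum without globin genes, the make-up shifted toward a few genes. Only cells listing at least 10 of them were used, 9 globin-low and 35 globin-rich. Rpl41 took a median of 6.66% of the sum in globin-low cells and 15.8% in globin-rich cells. Rpl35 went from 5.24% to 6.42%, Rpl23a from 2.94% to 3.47% and Rpl28 from 1.48% to 1.87%. In the other direction Rpl10 went from 3.61% to 0.0029%, Rpl32 from 3.77% to 1.75%, Rpl12 from 1.82% to 0% and Rpl30 from 1.80% to 0.0927%. Rpl10 and Rpl12 were listed in 16 and 15 of the 36 globin-rich cells, so their medians at or near 0 restate those counts. Across the 41 genes, rho between the make-up of globin-low cells and that of globin-mid cells was 0.913, and it was 0.704 with globin-rich cells. The 12 cells of other lineages, with median shares ordered like those of globin-low cells (rho 0.934), listed 31 to 41 of the genes.

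**Figure D5:**
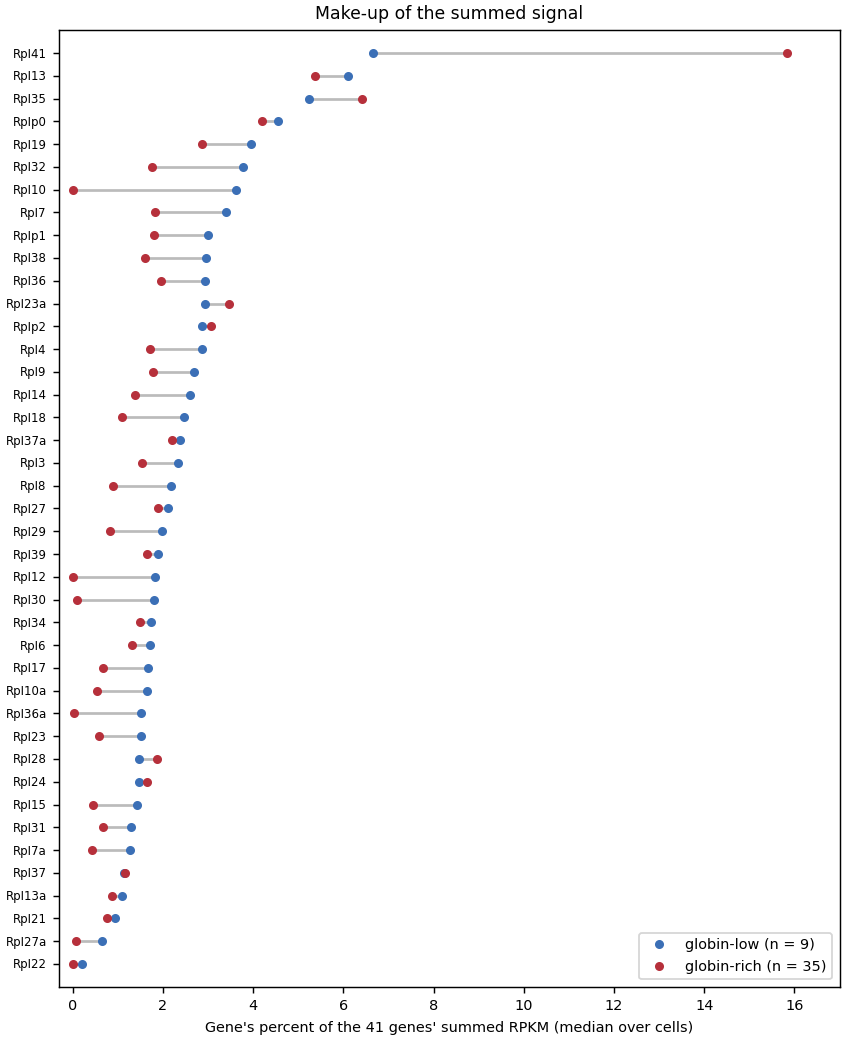
Median percent of the summed RPKM of the 41 genes that each gene took in 9 globin-low cells (blue) and 35 globin-rich cells (red), with a grey line joining the medians of a gene. Rpl41 lies far to the right in globin-rich cells at 15.8%, and Rpl10, Rpl12 and Rpl30 lie near 0.

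Near-identical copies can share reads with these genes, so single values are uncertain where a copy exists. The row Rpl34-ps1 had a globin-low median of 857 RPKM, above the 721 RPKM of Rpl34 itself, and both were listed in 25 globin-rich cells. Rpl36al, the expressed copy of Rpl36a, had a difference of -6.70 and was listed in 17 of 36 cells, beside 18 for Rpl36a. Rpl22l1 was listed in 12 of 36 globin-rich cells, with medians of 77.6 RPKM in globin-low and 129 RPKM in globin-mid cells. The testis-type copies Rpl10l and Rpl39l were listed at 0 in all 96 cells, and Rpl3l, known from muscle, was above 0 in 1 of 96.

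Other genes of the translation machinery give the setting. The 4 large-subunit genes Rpl5, Rpl11, Rpl26 and Rpl35a had a median difference of -5.51 between globin-rich and globin-low cells, and Rpl11 was listed in 20 of 36 globin-rich cells. Of 32 small-subunit genes 14 persisted, beside 11.3% of all genes tested and 32.1% of those listed in every globin-low cell. Of the 32, 31 were lower by at least 1, beside 71.7% of all genes tested, with a median of -5.10 for the 32. The other 1, Rps4l (named after its values were seen), had a median of 0 RPKM in all 3 ranges and so could not drop out. It was the 1 small-subunit gene listed in under 50% of globin-rich cells. Of 20 large-subunit assembly factors, among them Npm1 and Nop56, all 20 were lower by at least 1 with a median of -4.40, beside 71.7% of all genes. Of the 20 factors, 19 were listed in under 50% of globin-rich cells, beside 75.9% of all genes tested. Some of these factors were hardly present at the start: Bop1, Pes1 and Nop2 had globin-low medians of 0, and Gtpbp4, Rrs1 and Sdad1 of 3.61 to 5.63 RPKM, whereas Npm1 had 756 RPKM. Between globin-mid and globin-low cells the 20 factors had a median of -2.30, and 18 of 20 were lower by at least 1, beside 33.3% of all genes and their median of -0.50. The 41 subunit genes, all listed in every globin-low cell, had -0.89 and 11 of 41 in that comparison, and the lists differ in starting level. Of 14 translation factors 12 were lower by at least 1, beside 71.7% of all genes tested, with a median of -5.08 for the 14. The other 2 were Tpt1, at -0.87 and listed in 36 of 36 globin-rich cells, and Eef1d, at -0.58 and listed in 34 of 36.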

How the data were processed

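The deposited values are RPKM per RefSeq transcript (34899 rows), made by the authors, and TopHat2 2.0.9 and build mm9 are named, per the submitters' processing notes. The counting step is not given in the sources used here. Values were used as deposited, as log2(RPKM + 1), which understates differences of low genes. Cells were kept with at least 1000 symbols at 1 RPKM and without a non-erythroid marker list met (at least 3 markers and 50% at 10 RPKM). Depth was estimated from the steps of low values with GENCODE M21 lengths. A median of 68.8% of these values came out whole within 0.06, and a unit may be a read or a read pair. On simulated data the estimate gave 0.991 to 1.009 of the true depth. The simulated reads were drawn from the mean profile of all cells, with some transcript lengths altered. Accuracy on the sparser profile of a single cell was not tested.

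With 1 sample no test was run. Doublets were not called on so few cells. Genes listed in at least 10 kept cells served as background. All 41 genes are named. Ranges are given for the 6 highest and 6 lowest shares, the 4 largest and smallest differences and the 4 largest changes of make-up each way, and for the P stalk. Genes, lists and limits were chosen with earlier results of these data known. Alternatives covered pseudocount, scaling, transcript choice, cell filters, range limits, run codes and detection limit. Python 3.11.15, pandas 2.3.3 and scipy 1.17.1 were used.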

Additional observations from a re-analysis of the deposited data

How the results depend on the processing

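Every one of the 41 genes stayed lower in globin-rich than in globin-low cells under all 18 alternatives that bear on the difference. Rpl41 had the smallest difference in 17 of them (Rplp2 in run code SCP-1706013) and Rpl10 the largest in 15 (Rpl9, Rpl36a and Rpl12 in the others). The median difference against globin-low cells moved to -6.33 and -4.05 with pseudocounts of 0.1 and 10, -6.54 with cells rescaled to 1000000, -4.30 and -2.08 with minimums of 500 and 2000 symbols, and -3.96 with medians over cells. Against globin-mid cells it moved to -5.34 and -3.30 with those pseudocounts, -1.28 with 2000 symbols, -1.87 and -2.82 with 3 equal ranges by Hba-a1 and by Hbb-b1, and -3.18 with medians.

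The counts of 11 persisting and 3 dropping out were less steady. They became 19 and 0 with transcripts summed, which puts 46 cells in the globin-rich range, 6 and 6 with 500 symbols, 40 and 0 with 2000 symbols (6 cells), 3 and 7 from 400000 RPKM, 5 and 11 for 3 equal ranges by Hba-a1, and 4 and 19 for those by Hbb-b1. By the run codes of the descriptions, which titles and column names contradict, in SCP-1706013 alone 11 dropped out, and in SCP-170608 alone 25 persisted and 1 dropped out. At 10 RPKM 5 dropped out. With globin genes removed and cells rescaled to 1000000, Rpl3, Rpl4, Rpl13a, Rpl24 and Rpl34 persisted as well. Rpl10, Rpl12 and Rpl22 still dropped out there. The difference of Rpl41 from globin-low cells was -1.37 at that setting, beside -2.57 in the main one. Beyond the changes of sample stated, the cause was not tested. No paired analysis was possible because all cells belong to 1 group. The depth of a cell limits listing: at the shallowest globin-rich cell 1 RPKM stands for about 0.582 to 3.12 reads by the approximate lengths of 39 genes.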
